A study of Mus musculus with 2 samples.

Results

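The microRNA genes described here carry predicted gene symbols, which begin with Gm and a number, and received sequencing reads in the aged mouse heart. They were chosen by their counts: a gene of the count tables was taken when its GENCODE M21 symbol had this form and its sense-strand counts over both libraries summed to 1 or more. Gm25301 and genes inside Sfmbt2 or a microRNA cluster on chromosome 12 were left out, and the only genes with counts removed in this way were 4 inside Sfmbt2. The rule found 41 genes of the 2202 microRNA genes in the tables, of which 1021 carry a Gm symbol. After the exclusions, 41 of 966 Gm-named genes (4.24%) and 602 of 1050 other microRNA genes (57.3%) had at least 1 count. All 41 lie outside every named microRNA gene, on either strand, as do all but 4 of the 925 Gm-named genes with 0 counts. On exons of protein-coding genes lie 19 of the 41 (46.3%). The share was 5.30% of Gm-named genes with 0 counts and 19.3% of other microRNA genes with counts.

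The study holds 2 microRNA-seq libraries of 1 group, made from total RNA of hearts of aged females of 18 to 20 months. The mice were B6CASTF1/J, the first-generation hybrid of a C57BL/6J and a CAST/EiJ parent, with no further allele or treatment in the labels, and reads were counted against the mm10 assembly. In the labels each library is a biological replicate with its own tissue record, but both name the same donor record, so the spread between them may be technical. There is no other age, sex, strain or treatment to compare with. Each SD below is over n = 2 libraries.

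A microRNA begins as a hairpin in a longer transcript, which Drosha and DGCR8 cut out in the nucleus and Dicer trims to a short duplex. One strand of the duplex is loaded into an Argonaute protein and pairs with messenger RNAs mainly through its seed, bases 2 to 8 from the 5′ end. Many hairpins sit in introns of host genes and are transcribed with them. Gm symbols are placeholders that mouse nomenclature gives to predicted genes without a functional name, and many Gm-named microRNA genes come from computational prediction of hairpins, so the name alone does not show that a mature microRNA is made.

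For 3 of the 41 genes the RefSeq table (GRCm38.p6, the assembly of mm10) lists mature microRNAs, 4 in all. They are shown because they are the only members with a listed product to which reads could belong. The capitals mark the seed, and none of the 4 seeds recurs in another of the 1679 mature microRNAs of that table. The first pair below comes from the 2 arms of Gm38670 (chr7:30552828-30552904, plus strand), the next from Gm23450 (chr7:3415066-3415156, plus strand) and the last from Gm23363 (chr2:32318265-32318343, plus strand).
mmu-miR-9769-5p: aGGCACAGaauuaggcccgacc
mmu-miR-9769-3p: uAGGGUCUguucuguguccucc
mmu-miR-935: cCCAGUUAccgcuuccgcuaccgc
mmu-miR-3154: cAGAAGGGgagucgggagcgga

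The member with the most counts, Gm23935, belongs to a family of 6 Gm-named genes of almost the same sequence, 5 of which are members. The hairpins of GENCODE M21 are shown because 3 of them are identical and the reads of the family cannot be judged gene by gene. Capitals mark bases that differ from Gm23935, and Gm25911 also lacks 1 base. Gm23935 is at chr16:11144125-11144181 on the plus strand. Gm24270 at chr9:56223715-56223771 on the minus strand and Gm24245 at chr4:139338304-139338360 on the plus strand have its exact sequence. Gm23388 at chr8:85112012-85112068 and Gm25911 at chr1:167340369-167340424, both on the minus strand, differ from it, as does Gm24187, which had 0 counts.
Gm23935: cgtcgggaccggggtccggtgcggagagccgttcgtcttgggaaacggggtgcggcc
Gm23388: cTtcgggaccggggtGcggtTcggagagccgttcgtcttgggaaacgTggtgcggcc
Gm25911: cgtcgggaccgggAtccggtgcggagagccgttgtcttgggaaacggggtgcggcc
Gm24187: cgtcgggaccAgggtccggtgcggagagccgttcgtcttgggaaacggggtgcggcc

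The next 2 hairpins contrast a member with no repeated stretch of 20 bases and a member over another kind of RNA gene. The first does share a shorter stretch, of 16 bases, with miR-378d. Gm27881 (chr1:13262198-13262279, plus strand) shares no stretch of 20 bases with another microRNA gene, and capitals mark the 46 of its 82 bases that pair in the fold predicted by RNAfold. Gm44456 (chr13:21924928-21925016, minus strand) lies at the RefSeq tRNA gene n-TStga2, a serine tRNA. Capitals there mark the 82 of 89 bases that recur in n-TStga1, another locus the annotation lists as a microRNA gene, which had 0 counts in both libraries.
Gm27881: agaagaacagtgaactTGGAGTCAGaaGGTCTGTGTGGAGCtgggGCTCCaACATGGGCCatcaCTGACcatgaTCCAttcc
Gm44456: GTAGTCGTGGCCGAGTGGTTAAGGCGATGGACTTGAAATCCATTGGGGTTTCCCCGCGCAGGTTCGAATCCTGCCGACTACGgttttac

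Although no member overlaps a named microRNA gene, 4 of 41 (9.76%) hold on the same strand a stretch of at least 16 bases of a RefSeq mature microRNA of another gene, a length set after the data were seen. The same held for 357 of the 925 Gm-named genes with 0 counts (38.6%). Gm23134 holds 22 of the 23 bases of miR-708-5p, and Gm22120 holds 21 of the 22 bases of miR-3098-5p. Capitals below mark the shared bases of these 2 mature microRNAs, whose own genes are at chr7:96249450-96249472 and chr6:125195807-125195828.
mmu-miR-708-5p: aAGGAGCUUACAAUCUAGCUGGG
mmu-miR-3098-5p: UCCUAACAGCAGGAGUAGGAGc

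Both members had 0 counts in replicate 1 and 1 in replicate 2. Mir708 itself had 99 and 460 counts, so the single read of Gm23134 stood beside a named gene with far more. Mir3098 had 11 and 6 counts. Gm25931, with 1 count in replicate 1, shares 17 bases with miR-5123, whose gene had 0 counts in both. Gm27881 shares 16 bases with miR-378d, and Mir378d had 704 and 896 counts (226 ± 25.2 CPM, sense counts per 1000000 over all microRNA genes). Only 1 mature microRNA with the longest match was kept per member, so others that match equally are not shown. Whether the product of Mir378a, which had 387143 and 517774 sense counts, matches Gm27881 equally is not given here. Whether reads of these named microRNAs were placed at the members was not tested.

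The libraries held 9362013 and 10549508 reads in the sense column, of which 3383676 (36.1%) and 3676084 (34.8%) were counts of microRNA genes. A level of 3 counts, the upper limit that a count of 0 allows, was 0.887 CPM in replicate 1 and 0.816 CPM in replicate 2. Of 8 heart muscle microRNA genes, Mir499 and Mir208a stood at 3772 ± 290 and 1418 ± 241 CPM, Mir1a-2 at 72.0 ± 14.4 and Mir208b at 38.1 ± 29.7 CPM. Mir1a-1 and the genes of the Mir133 family (Mir133a-1, Mir133a-2 and Mir133b) stood between 3.05 and 5.21 CPM, below the hepatocyte Mir122 at 20.5 ± 4.81 CPM. Reads with several places (43.9% and 43.2% of reads) were listed apart from the genes. The values are thus of single loci and may not give the level of a mature microRNA made at several loci. The endothelial Mir126a stood at 93379 ± 50437 CPM. Of the neuronal genes, Mir124a-1, Mir124a-2, Mir124a-3, Mir9-1 and Mir9-2 had 0 counts, and Mir9-3 had 3 in each library. The leukocyte genes Mir150 (2345 and 7737 CPM), Mir142 (570 and 1323) and Mir223 (133 and 322) were higher in replicate 2. Mir155, also of leukocytes, differed less (4266 and 4882 CPM). The erythroid Mir451a (1691 and 803 CPM), Mir144 (1119 and 255) and Mir486 (1372 and 880) were higher in replicate 1. The part of these cells in the members' differences was not tested. In bulk tissue fewer cells of a type and less RNA per cell cannot be told apart.

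The 41 genes together received 253 counts in replicate 1 and 277 in replicate 2. These sums were 74.8 CPM (Wilson 95% interval 66.1 to 84.6) and 75.4 CPM (67.0 to 84.8), with a mean of 75.1 ± 0.411 CPM. As a share of all microRNA gene counts they were 0.00748% and 0.00754%. The summed level thus differed between the libraries by far less than its counting interval, while single members did not keep the same share of it. Reads carry no molecular identifiers, so the intervals cover counting error only.

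Most members were close to the limit of detection. There were 24 with counts in both libraries, 11 with counts in replicate 1 only and 6 in replicate 2 only. The median sum was 4 counts, and 12 members reached 10 summed counts, 6 of them with 10 or more in each library. A further 8 had sums of 5 to 9 and 8 had sums of 2 to 4. Just inside the rule stood 13 members with a single count in all, such as Gm22120, Gm22396 and Gm23134, and just outside it stood 925 Gm-named genes with none. A sum of 1 cannot be told from a stray read at this depth. By mean CPM, which is not divided by hairpin length, the highest member ranked 239 of the 708 microRNA genes with counts.

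**Figure D1:**
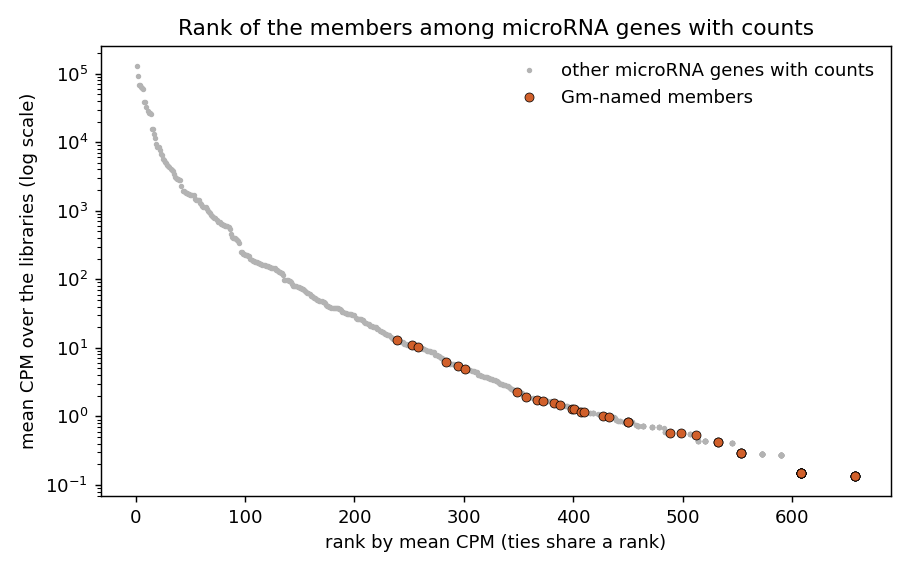
Mean CPM over both libraries (log axis) against rank for the 708 microRNA genes with counts, with the 41 Gm-named genes in orange. The orange points start at rank 239 and continue to the end of the curve, where genes with a single count share a rank.

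Gm23935 led with 55 counts in replicate 1 and 35 in replicate 2, or 12.9 ± 4.76 CPM. It lies opposite the zinc finger gene Zc3h7a and has no gene of its own strand around it. Gm49347 followed with 22 and 56 counts, or 10.9 ± 6.17 CPM, the reverse order of libraries. Gm27881, opposite the nuclear receptor coactivator Ncoa2, had 31 and 42 counts, or 10.3 ± 1.60 CPM. The gap between neighbours in this order is smaller than the SD of either, so their order is not set. Of the members' counts they held 42.7% (36.7 to 48.8, Wilson 95% interval) in replicate 1, and their share was 48.0% (42.2 to 53.9) in replicate 2.

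The next members had lower counts. Gm26117, at a protein-coding transcript start that lies inside the adhesion receptor gene Adgrb1, had 23 and 20 counts (6.12 ± 0.959 CPM). Gm38670 in the small heat shock protein gene Hspb6 had 14 and 25 (5.47 ± 1.88 CPM). Gm24270 in an intron of the kinase-like gene Peak1 had 12 and 23 (4.90 ± 1.92 CPM). Neighbours in this order differ by less than their SDs, and the top 6 held 62.1% and 72.6% of the members' counts.

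Among the other members of the top 20, mean levels ran from 2.31 down to 0.828 CPM. Gm25745, in the gene of the endoplasmic reticulum chaperone Hsp90b1, had 1 and 13 counts. Gm44456, at the serine tRNA, had 11 and 1. Each of them therefore rested almost wholly on 1 library. Gm47277 with 5 and 7 counts (1.69 ± 0.302 CPM) and Gm23634 with 5 and 4 (1.28 ± 0.275 CPM) were close between the libraries. Gm24589 (8 and 3), Gm25262 (8 and 2), Gm27920 (6 and 3), Gm27322 (7 and 1) and Gm23394 (5 and 3) had more counts in replicate 1, and Gm22123 (2 and 5), Gm22240 and Gm25732 (1 and 5 each) had more in replicate 2.

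**Figure D2:**
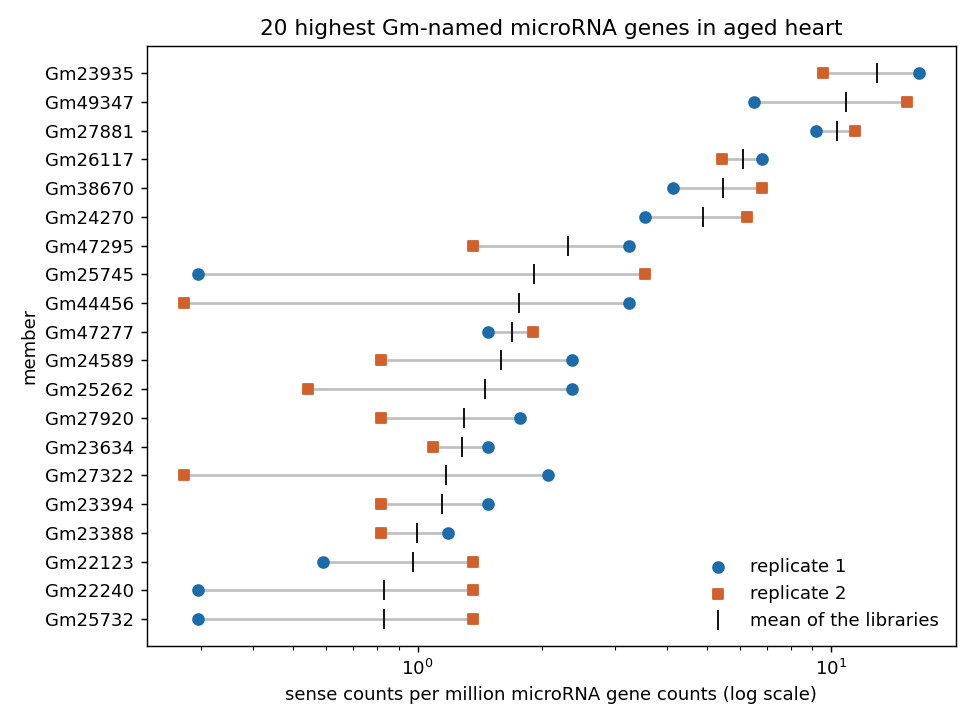
Sense CPM (log axis) of the 20 Gm-named microRNA genes with the highest means, with a circle for replicate 1, a square for replicate 2 and a tick for the mean. The widest gaps belong to Gm25745, with 1 and 13 counts, and Gm44456, with 11 and 1.

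The libraries were set against each other gene by gene with an exact binomial test (two-sided), on TMM-scaled totals and Benjamini-Hochberg adjustment over 316 genes with 10 or more counts in each library. This test sets 2 libraries against counting noise and compares no conditions. Only 6 members could enter, and 2 were called, against 60.1% of all genes tested that were called in either direction. Gm49347 was higher in replicate 2, by 1.12 on the log2 scale (95% interval 0.38 to 1.90), with an adjusted exact binomial p of 0.00279, and 33.5% of all genes tested were called higher in that library. Gm23935 was lower in replicate 2, with a log2 difference of -0.88 (-1.54 to -0.24) and an adjusted exact binomial p of 0.0105.

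For the other members tested, the log2 difference was 0.71 (-0.36 to 1.85) for Gm24270, 0.61 (-0.39 to 1.66) for Gm38670, 0.21 (-0.49 to 0.93) for Gm27881 and -0.43 (-1.37 to 0.50) for Gm26117. Their adjusted exact binomial p-values ran from 0.255 to 0.640, and intervals this wide do not show equal levels. Of 53 other genes with sums in the range of these 6 members, 15 were called, so the members' count says nothing particular about them. When genes with 10 or more summed counts were tested, 4 of 12 members were called, beside 51.8% of all 396 genes. With 1 or more summed counts, 4 of 41 members were called, beside 28.4% of all 708 genes. Gm25745 and Gm44456 joined the called members under both filters, with adjusted exact binomial p-values of 0.00599 and 0.00455 under the first.

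**Figure D3:**
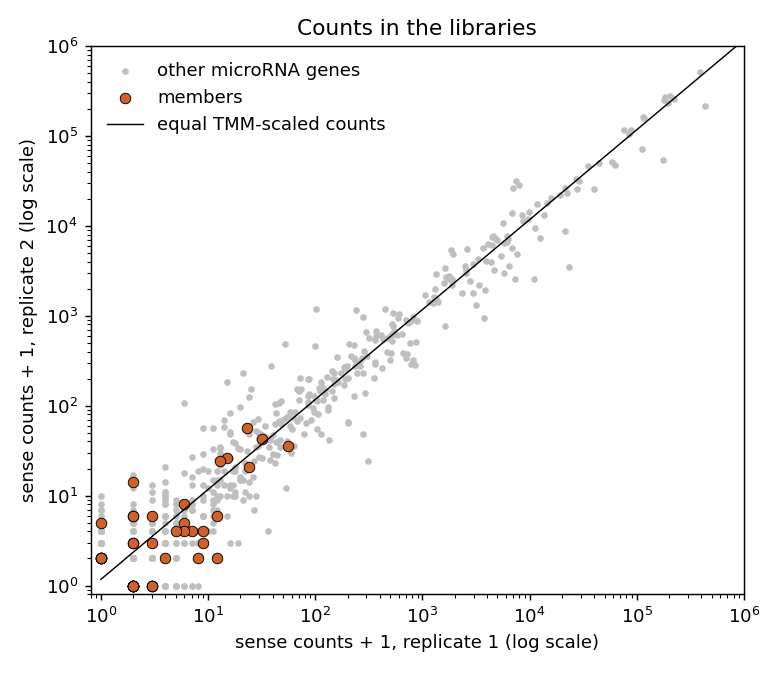
Sense counts plus 1 in replicate 2 against replicate 1 (log axes) for all microRNA genes, with the 41 Gm-named genes in orange and a line at equal TMM-scaled counts. The members fill the low corner, and the 6 with 10 or more counts in each library lie on both sides of the line.

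The 57-base family took 71 counts in replicate 1 and 63 in replicate 2, or 28.1% and 22.7% of the members' counts. Gm23935 and Gm24270 held nearly all of these, with opposite orders of the libraries. Gm23388, which differs at 4 bases, had 4 and 3 counts, and Gm24245 and Gm25911 had 1 count each, in replicate 2. A read wholly inside 3 identical hairpins fits each of them equally, while the tables list reads with several places in a row of their own (43.9% and 43.2% of reads). How the counts of Gm23935 and Gm24270 were assigned is not given in the sources used here. The family was not compared here with ribosomal RNA or other abundant RNAs, so the RNA its reads come from is not known. Without the family the members summed to 56.0 CPM.

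A stretch of 20 bases recurred in another microRNA hairpin for 15 of 41 members (36.6%), the 5 of the family and 10 of the 36 others. It recurred for 761 of 925 Gm-named genes with 0 counts (82.3%) and for 15.4% of the other-named genes with counts. How far shared sequence kept reads out of the gene counts was not tested.

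By location, 19 members overlapped an exon of a protein-coding gene on the same strand, 5 overlapped a small RNA gene, 5 lay in introns, 7 had a gene on the opposite strand only, 4 had no other GENCODE gene and 1, Gm24158, lay on an exon of the noncoding Gm11613. The exonic members held 75 and 87 counts (22.9 ± 1.06 CPM) and those with an opposite gene only held 99 and 84 (26.1 ± 4.53 CPM). The members over small RNA genes held 41 and 68 (15.3 ± 4.51 CPM), the intronic ones 25 and 30 (7.77 ± 0.546 CPM) and those with no other GENCODE gene 12 and 8, nearly all of them of Gm44456 at its RefSeq tRNA gene and of Gm25732. Wholly inside a host gene of the same strand were 26 of 41 (63.4%), beside 279 of 925 Gm-named genes with 0 counts (30.2%) and 466 of 602 other-named genes with counts (77.4%). No host gene held more than 1 member.

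Of the 19 exonic members, 9 overlapped the exon part before the coding sequence, 7 the coding sequence, 1 the part after it and 2 exons of other transcripts. In the first kind were Gm23634 in Stmn1, which encodes the microtubule regulator stathmin, Gm27322 in the ubiquitin ligase gene Smurf2 and Gm23394 in Ralgapa1, a regulator of Ral GTPases. Gm27920 lay on coding sequence of the deubiquitinase gene Usp15. Gm22123 was the member beyond a coding sequence, in Purb, which encodes a nucleic acid binding protein, and Gm22240 lay where exons of Itprip and Cfap43 coincide.

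The remaining exonic members had sums of 1 to 4. They overlapped exons of Cacng8 (Gm23450, 3 and 1 counts), the linker histone gene H1fx (Gm47286, 0 and 4, with 24 of its 128 bases on the exon), Sbno1 (Gm27486, 1 and 2) and Ccdc136 (Gm26220, 2 and 0). Those with a single count overlapped exons of the acetyltransferase gene Ep300 (Gm23880), Agfg1 (Gm22396, 16 of 53 bases), the RNA helicase gene Ddx5 (Gm25994), the cytoplasmic actin gene Actg1 (Gm23419), Rcc2 (Gm25951) and the mitochondrial kinase gene Pink1 (Gm27646). Messenger RNA levels of the hosts were not measured here, so fragments of host transcripts and cut hairpins cannot be told apart from these counts.

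A trait the rule did not use was nearness to starts of protein-coding transcripts of the same strand, examined after the data were seen. The hairpin centre lay within 500 bases of such a start for 16 of 41 members (39.0%), for 24 of 925 Gm-named genes with 0 counts (2.59%) and for 56 of 602 other-named genes with counts (9.30%). In 10 members (24.4%) a start lay inside the hairpin itself, beside 0.757% and 1.83% of the comparison genes. The 16 held 78 and 84 counts, 30.8% and 30.3% of the members' total. Of these, 14 were exonic, and Gm25262 and Gm44349 were not. The centres of both lay upstream of the nearest coding start, at -444 and -403 bases. Some exonic members were also centred upstream, namely Gm38670 (-402), Gm47286 (-40.5), Gm23394 (-11) and Gm22396 (-11).

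The distance was 15 bases for Gm26117, 2.5 for Gm27920, 5.5 for Gm27322 and 0 for Gm23634, whose centre coincides with a start. Among genes with no 20-base stretch in another hairpin, the shares were 12 of 26 members (46.2%), 8 of 164 Gm-named genes with 0 counts (4.88%) and 51 of 509 other-named genes with counts. With 10 or more summed counts, 4 of 12 members (33.3%) lay within 500 bases and 1 (8.33%) within 100 bases. Of the 29 members with a sum under 10, 12 (41.4%) lay within 500 bases and 9 (31.0%) within 100. The close starts thus belong mostly to members with few reads.

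**Figure D4:**
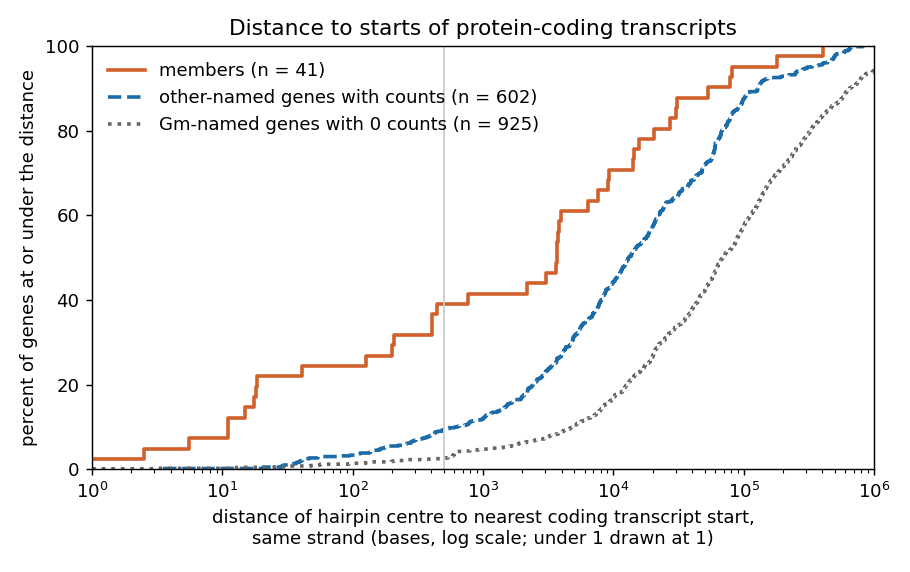
Cumulative percent of genes (linear axis) by distance of the hairpin centre to the nearest start of a protein-coding transcript on the same strand (bases, log axis), for 41 members, 602 other-named genes with counts and 925 Gm-named genes with 0 counts. At the grey line of 500 bases the curves stand at 39.0%, 9.30% and 2.59%.

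The members' hairpins were also rich in G and C, given here as a description with no test. The median GC content of the members' hairpins was 67.7% (quartiles 55.0 and 73.7), beside 51.0% for Gm-named genes with 0 counts and 52.9% for other-named genes with counts. A GC content of 60% or more was found in 26 of 41 members (63.4%), in 194 of 925 Gm-named genes with 0 counts and in 137 of 602 other-named genes with counts (22.8%). Gm26117 inside Adgrb1 reached 91.6%. Predicted folding energy per 100 bases had a median of -40.8 kcal/mol in members, -31.8 in Gm-named genes with 0 counts and -42.9 in other-named genes with counts. GC pairs lower this energy, so the values move with base composition.

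**Figure D5:**
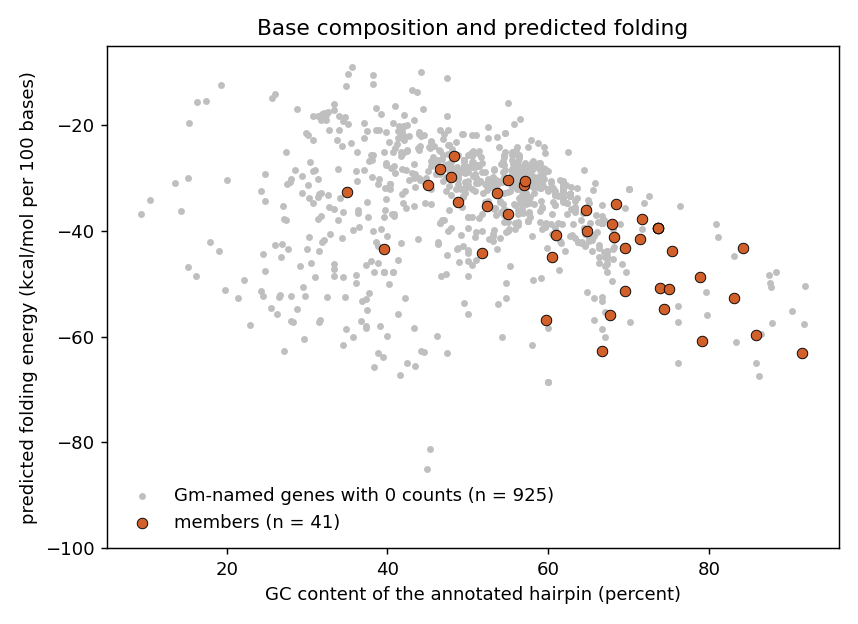
Predicted folding energy per 100 bases (kcal/mol) against GC content (percent) of the annotated hairpins, for the 41 members in orange and the 925 Gm-named genes with 0 counts in grey. The members lie mostly to the right, with a median GC content of 67.7% against 51.0%.

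Members over small RNA genes share their reads' place with noncoding RNAs of other kinds. Gm49347 (chr18:35557132-35557242, plus strand) covers 96 bases of Snora74a, a box H/ACA small nucleolar RNA that guides pseudouridylation of other RNAs. Gm47295 (chr12:69159518-69159596, plus strand), with 11 and 5 counts, shares 77 of its 79 bases with Rn7s1, a gene of the 7SL RNA of the signal recognition particle. Gm47277 covers 88 bases of the snoRNA gene Gm24698 in Champ1. Gm47284 (2 and 0 counts) lies over the snoRNA gene Gm24888 in the ribosomal protein gene Rpl27a, and Gm49346 (1 and 0) over Snora81 in the initiation factor gene Eif4a2. These 5 are 12.2% of the members, beside 16 of 925 Gm-named genes with 0 counts (1.73%) and 12 of 602 other-named genes with counts (1.99%). A RefSeq tRNA gene was overlapped by 0 of the 925. With the tRNA member Gm44456, 6 of 41 members coincide with a structural RNA. Without them the summed level was 58.0 CPM, and whether their reads are pieces of these RNAs was not tested.

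The intronic members outside small RNA genes were Gm24270 in Peak1, Gm24589 in the polycystin gene Pkd1, Gm23388 in Zfp791, Gm23134 in Blcap and Gm25931 in the galactosyltransferase gene B4galt1. Gm23134 also lies opposite Nnat. With only an opposite gene, besides Gm23935 and Gm27881, were Gm25262 and Gm22120, which face the noncoding genes Gm12473 and Gm48807, Gm44349 opposite Elp5 (2 and 2 counts), Gm28033 opposite Ppp1r18 (1 and 2) and Gm23363 opposite the dynamin gene Dnm1 (2 and 0). At Gm25732, Gm24245 and Gm25911 there was no overlapping gene, and at Gm44456 only the RefSeq tRNA gene. Gm25732 (chr4:139338206-139338265, plus strand) lies next to Gm24245 of the 57-base family, on the same strand.

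Overlap with named microRNA genes was 0 of 41 members on either strand, beside 0 of 925 Gm-named genes with 0 counts on the same strand and 4 of 925 (0.432%) on the opposite one. Within 1000 bases on the same strand lay 4 members (9.76%), beside 6 of 925 Gm-named genes with 0 counts (0.649%). For other-named genes with counts it was 101 of 602 (16.8%). Of the 12 members with 10 or more summed counts, 0 lay so near. Gm23363 is 116 bases from Mir199b, which had 23 and 47 counts (9.79 ± 4.23 CPM) against its own 2 and 0. Gm25994 is 411 bases from Mir3064, which had 31 and 46 (10.8 ± 2.37 CPM) against its own 0 and 1. Gm25931 is 181 bases from Mir5123 and Gm23419 is 530 bases from Mir6935, and these named genes had 0 counts in both libraries. In each pair with counts the named neighbour had the higher level in both libraries.

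The 4 overlapping genes had 0 sense counts and are not members, and their antisense counts are those of the named gene across from them. Gm24083, opposite Mir191, had 35153 and 46253 antisense counts, equal to the sense counts of Mir191. Gm25927, opposite Mirlet7e, had 21501 and 26442, and Gm24111, opposite Mirlet7f-1, had 820 and 974, again equal to those of the named gene. Gm25641, opposite Mir9-1, had 0. In the column for reads on either strand these named genes were listed at 0. The members showed no such pattern, with 1 and 2 antisense counts in all, spread over Gm24270, Gm27646 and Gm27486, and no member had more antisense than sense counts over both libraries.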

How the data were processed

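For each of 2 libraries the authors deposited a headerless table of raw counts by microRNA gene, whose columns were read from their values as either-strand, sense and antisense reads. The deposited readme text names mm10 as assembly and M21 as GENCODE release. Which aligner and counter were used is not given in the sources used here. In the sense column 4 rows are no genes and stayed out of totals: unmapped (14.9% and 16.2% of reads), multimapping (43.9% and 43.2%), no feature (5.07% and 5.75%) and ambiguous (0 in both).

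The members and lists were chosen with earlier results of these data known. CPM used sense totals of 3383676 and 3676084. Named genes are the 20 members with the highest mean CPM, members overlapping a named microRNA gene, members with 10 or more summed counts and more antisense than sense counts, members called, and 3 members with a sum of 1, first by symbol. The others were named after their values were seen, to account for every member.

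All 2202 identifiers matched GENCODE M21, which gave positions, hosts and hairpins. RefSeq tables (GRCm38.p6) gave mature sequences and tRNA genes. Libraries were compared with an exact binomial test, tested on simulated data, with TMM factors of edgeR 4.0.16 and, as an alternative, DESeq2 1.42.0 size factors. With 1 group no test between conditions was possible. R 4.3.3, Python 3.11.15, scipy 1.17.1 and RNAfold 2.7.2 were used. Alternatives changed the count minimum, column, denominator, filter, window and libraries.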

Additional observations from a re-analysis of the deposited data

How the results depend on the processing

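Depth limits most members, since 29 of 41 had under 10 summed counts. The number of members was 20 with 5 or more summed counts, 12 with 10 or more and 24 with a count in each library. On antisense reads 8 Gm-named genes had a count, only 3 of them members. The members' summed level of 75.1 CPM became 26.6 CPM over all reads and 101 CPM on either strand. It was 56.0 CPM without the 57-base family and 58.0 CPM without members over small RNA genes. On either strand the total of microRNA gene counts was lower, at 2458090 and 2824159. The members had only 1 and 2 antisense counts. With 10 or more summed counts, 7 members lay inside a host gene, 4 shared 20 bases with another hairpin and 4 lay within 500 bases of a coding start. Exonic members were 3 with that minimum. Within 100 bases of a coding start lay 10, and 1 of them had 10 or more summed counts. A window of 1000 bases gave 4 members near a named microRNA gene. Members called between the libraries were 4 of 12 with 10 or more summed counts (51.8% of 396 genes) and 4 of 41 with 1 or more (28.4% of 708), and no member could be tested at 100 counts in each. Leaving out 1 library at a time gave 0 to 1 members with more antisense than sense counts. Fewer genes, another denominator or another column make up these alternatives, and further causes were not tested. For the levels of the 20 named members, another column or denominator moved 22 values by less than 1 SD and 18 by more. Both changes rescale the members almost alike, so this tally follows the size of each SD and does not show which levels are stable. Gm47277, with close libraries, moved by more than 1 SD, and Gm25745, resting almost wholly on 1 library, by less. With n = 2, leaving out a library shows only the other library's value: Gm25745 ranged from 0.296 to 3.54 CPM. No paired analysis was possible because there is 1 group.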
